A study of Mus musculus with 24 samples.

Results

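The 10 genes described here build and regulate blood vessels in the cortex: the growth factor gene Vegfa, the VEGF receptor genes Flt1 and Kdr, the angiopoietin receptor gene Tek and its ligand gene Angpt2, the endothelial surface and junction genes Pecam1, Cdh5, Icam2 and Cldn5, and the glucose transporter gene Slc2a1. They were found by symbol in the deposited mRNA table, where each matched 1 gene, and they are 10 of 36096 genes in that table and 10 of the 15786 that were tested. They were selected on their genotype difference in these same libraries, so the values that compare genotypes are a description of them and carry no test. All 10 passed the filter on low values, which asked for at least 0.5 FPKM (fragment counts scaled to transcript length and library total) in at least 3 of 12 libraries.

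The libraries came from medial frontal cortex of C57BL/6J mice at postnatal day 28, with ribosomal RNA removed. Dnmt3l males and Dnmt3l females were offspring of a conditional Dnmt3l knock-in line bred to Emx1-cre mice, and control males and control females carried Emx1-cre, which all 4 groups share. Each group held 3 samples, written below by genotype, sex and number (Dnmt3l female 1). The labels do not say whether each sample is a separate animal, so p-values measure only how far these samples differ, and that spread may be technical. Emx1-cre directs recombination in progenitors of the dorsal forebrain, which give rise to excitatory neurons and to part of the glia. Endothelial cells come from mesoderm and are not of that lineage. The tissue was whole cortex, where fewer cells of a type and less RNA per cell cannot be told apart.

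Endothelial cells line all vessels and in the brain form the blood-brain barrier, with tight junctions between cells and transporters that carry nutrients. VEGF-A, made in the cortex mainly by astrocytes and neurons, acts on the tyrosine kinase receptor VEGFR2, while VEGFR1 binds the same ligand tightly and limits how much of it reaches VEGFR2. Angiopoietins act on the receptor TIE2: angiopoietin 1 keeps vessels quiescent, and angiopoietin 2, released by endothelial cells themselves, mostly opposes it and makes vessels responsive to VEGF.

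Total mRNA counts per library ran from 22144970 to 26842726 in Dnmt3l and from 27074837 to 32100277 in controls. The Dnmt3l RNA itself was at 20.7 to 45.8 CPM (counts scaled to the TMM-adjusted library total) in Dnmt3l libraries and at 0 to 3 counts in controls. Dnmt3l female 1 stood apart from the other 2 Dnmt3l females: its counts differed from theirs with a mean chi-square per gene of 94.6 and 104, against 8.39 to 17.1 for all other pairs of 1 group. It also had the highest Dnmt3l level, at 45.8 CPM, against 20.7 to 27 CPM in the other 5 Dnmt3l libraries. The share of counts from mitochondrial genes was 3.73% in Dnmt3l female 1, 5.57% to 7.3% in the other 5 Dnmt3l libraries and 2.63% to 3.59% in controls. Total depth and mitochondrial share do not overlap between genotypes, so their part in any genotype difference cannot be told apart from genotype. Control male 3 and control females 1 and 2 held transcripts of liver genes, with 68 to 89.3 CPM summed over 8 such genes, against 0.316 to 1.69 CPM in the other 9 libraries.

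In the deposited coordinates (GRCm38), Vegfa lies on chromosome 17 from 46016993 to 46032369, Flt1 on chromosome 5 from 147561604 to 147726011 and Kdr on chromosome 5 from 75932827 to 75978458. Tek lies on chromosome 4 from 94739289 to 94874976, as does Slc2a1, from 119108711 to 119137983. Angpt2 lies on chromosome 8 from 18690263 to 18741562, as does Cdh5, from 104101625 to 104144511. Icam2 and Pecam1 both lie on chromosome 11, from 106377656 to 106388075 and from 106654217 to 106750628, and Cldn5 lies on chromosome 16 from 18776847 to 18778262.

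Promoter windows in the RefSeq table for GRCm38.p6, from 250 bases before to 50 bases after the start of a gene, matched 6 of the 10 genes (Cldn5, Flt1, Kdr, Slc2a1, Tek and Vegfa, which has 2 windows). Pecam1, Cdh5, Icam2 and Angpt2 are named only. Both strands were searched for the core motifs CCGGAA and CAGGAA of ETS factors, the family to which the endothelial regulators Erg and Fli1 belong, for the core ACGTG of the hypoxia response element and for the E-box CACGTG, which contains ACGTG. Shown here are the windows of the VEGF receptor 2 gene, the angiopoietin receptor gene and the glucose transporter gene, which each hold a motif, with matches on either strand in capitals.
Kdr promoter (chr5:75978406-75978705, minus strand): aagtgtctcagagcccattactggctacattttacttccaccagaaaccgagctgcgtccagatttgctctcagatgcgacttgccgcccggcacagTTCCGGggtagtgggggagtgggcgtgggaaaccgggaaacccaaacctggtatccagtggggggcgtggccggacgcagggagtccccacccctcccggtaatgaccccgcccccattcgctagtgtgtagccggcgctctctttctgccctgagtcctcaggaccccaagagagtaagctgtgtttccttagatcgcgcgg
Tek promoter (chr4:94739039-94739338, plus strand): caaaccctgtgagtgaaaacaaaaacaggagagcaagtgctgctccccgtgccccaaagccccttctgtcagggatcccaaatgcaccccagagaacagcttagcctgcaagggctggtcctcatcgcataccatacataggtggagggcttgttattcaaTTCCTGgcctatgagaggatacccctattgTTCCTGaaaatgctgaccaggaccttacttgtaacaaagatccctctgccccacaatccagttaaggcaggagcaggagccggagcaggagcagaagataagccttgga
Slc2a1 promoter (chr4:119108495-119108794, plus strand): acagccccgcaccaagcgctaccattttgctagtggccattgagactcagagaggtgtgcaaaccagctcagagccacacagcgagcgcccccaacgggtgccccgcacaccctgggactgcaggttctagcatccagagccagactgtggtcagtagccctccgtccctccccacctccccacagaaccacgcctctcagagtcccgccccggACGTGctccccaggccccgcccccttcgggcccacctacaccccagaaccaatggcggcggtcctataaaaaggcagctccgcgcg
The Kdr window held 1 match to CCGGAA, which 14.9% of all 32851 promoter windows in the table also hold. Tek held 2 matches to CAGGAA, a motif present in 30.6% of all windows, and Slc2a1 held 1 match to ACGTG, present in 19.6%. The upstream Vegfa window held 1 match to CAGGAA and the other 1 match to ACGTG, no window held the E-box (7.2% of all windows), and Cldn5 and Flt1 held none of the letters searched. CpG dinucleotides, the sites that DNA methyltransferases act on, numbered 29 in the Flt1 window, 19 in Kdr, 18 in Slc2a1, 16 and 10 in the Vegfa windows, 12 in Cldn5 and 3 in Tek, against a median of 7 over all windows. Tek therefore stood below that median and the other windows above it, and DNA methylation was not analysed here.

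Per transcript length, Slc2a1 and Vegfa were the most abundant of the 10 genes and Angpt2 the least. In FPKM, Slc2a1 was at 69 ± 24.3 in Dnmt3l libraries and 36.1 ± 5.51 in controls (SD, n = 6 each, as in all FPKM values here), and Vegfa at 53.1 ± 8.44 in Dnmt3l and 35.4 ± 3.65 in controls. Flt1 was at 21.5 ± 3.15 FPKM in Dnmt3l and 13.2 ± 0.983 FPKM in controls. Cldn5 was at 19.7 ± 3.31 FPKM in Dnmt3l and 10 ± 1.24 FPKM in controls. Kdr, the receptor gene that carries most of the VEGF-A signal, was below Flt1 on this scale, at 8.9 ± 2.28 FPKM in Dnmt3l and 4.29 ± 0.447 FPKM in controls. Pecam1 was at 14.5 ± 3.3 FPKM in Dnmt3l and 8.45 ± 0.683 FPKM in controls, and Cdh5 at 9.92 ± 2.02 FPKM in Dnmt3l and 6.1 ± 0.586 FPKM in controls. Tek was at 5.63 ± 0.809 FPKM in Dnmt3l and 3.83 ± 0.479 FPKM in controls. The lowest levels were those of Icam2, with 1.84 ± 0.863 FPKM in Dnmt3l and 1.18 ± 0.234 FPKM in controls, and of Angpt2, with 1.51 ± 0.693 FPKM in Dnmt3l and 0.488 ± 0.19 FPKM in controls. Among control means the neighbours Slc2a1 and Vegfa, and the neighbours Kdr and Tek, differed by less than the larger of their 2 SDs, and the other neighbours by more. The 7 endothelial markers among the 10 genes (Cldn5, Pecam1, Flt1, Kdr, Tek, Icam2 and Cdh5) were detected in all 12 libraries. Icam2 rested on 24 to 72 counts per library in Dnmt3l and 20 to 39 in controls, and Angpt2 on 40 to 133 counts in Dnmt3l and 24 to 49 in controls.

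Vegfa, the ligand, had 72.3, 70 and 60.3 CPM in Dnmt3l males and 62.6, 63.4 and 91.7 CPM in Dnmt3l females, against 43.4, 46.8 and 49.1 CPM in control males and 49.4, 47 and 45 CPM in control females. All 6 Dnmt3l libraries lay above all 6 controls, with the highest value in Dnmt3l female 3. The log2 change, Dnmt3l minus control averaged over sexes in an edgeR fit of all 12 libraries, was 0.58 ± 0.1 (SE, as for all log2 changes here), a 1.5-fold higher level and the smallest change among the 10 genes.

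Flt1, which encodes VEGFR1, had 134, 141 and 151 CPM in Dnmt3l males and 97.4, 124 and 152 CPM in Dnmt3l females, against 77.7, 80.4 and 85.3 CPM in control males and 82.9, 71.4 and 84.3 CPM in control females. The lowest Dnmt3l library, female 1, still lay above every control, and the log2 change was 0.73 ± 0.1. Kdr, which encodes VEGFR2, had 59.5, 43.6 and 63.1 CPM in Dnmt3l males and 26.9, 54.4 and 58.1 CPM in Dnmt3l females, against 21.7, 24.9 and 24.2 CPM in control males and 24.4, 24.2 and 18.6 CPM in control females. Dnmt3l female 1 was close to the highest control, the other 5 Dnmt3l libraries were well above it, and the log2 change was 1.14 ± 0.17.

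Tek, which encodes TIE2, had 24.5, 27 and 25.9 CPM in Dnmt3l males and 17, 24.7 and 25.4 CPM in Dnmt3l females, against 13.8, 17.1 and 13.6 CPM in control males and 16.6, 13.8 and 16.4 CPM in control females. Dnmt3l female 1 lay within the range of controls and the other 5 libraries were above it, with a log2 change of 0.66 ± 0.11. Angpt2, the TIE2 ligand, had 5.64, 3.62 and 5.27 CPM in Dnmt3l males and 1.55, 3.39 and 5.35 CPM in Dnmt3l females, against 0.831, 0.851 and 1.42 CPM in control males and 1.4, 1.78 and 1.16 CPM in control females. Its log2 change of 1.73 ± 0.28, a 3.32-fold higher level, had the highest value and the joint highest SE of the 10, and again Dnmt3l female 1 was the Dnmt3l library inside the control range. The log2 change of Angpt2 was 1.37 with limma on log2(FPKM + 0.1) and 0.71 with limma on log2(FPKM + 1), and the log2 change of Icam2 was 0.5 and 0.33 under the same settings. In controls the 2 genes averaged 0.488 and 1.18 FPKM, and at such levels the added 1 by itself shrinks a log2 ratio.

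Pecam1, the CD31 adhesion molecule of endothelial contacts, had 37.2, 37.5 and 45 CPM in Dnmt3l males and 21.5, 38.4 and 39.4 CPM in Dnmt3l females, against 18.7, 21.4 and 19.9 CPM in control males and 18.8, 18.9 and 17.8 CPM in control females. Cdh5, the VE-cadherin of adherens junctions, had 38.8, 44.3 and 43.6 CPM in Dnmt3l males and 22.6, 37 and 42.5 CPM in Dnmt3l females, against 21.1, 20 and 22.5 CPM in control males and 22.9, 24.7 and 19.1 CPM in control females. In both genes 5 Dnmt3l libraries lay far above the control range, and Dnmt3l female 1 lay just above that range (Pecam1) or inside it (Cdh5). The log2 changes were 0.92 ± 0.13 for Pecam1 and 0.8 ± 0.13 for Cdh5. Icam2, an adhesion molecule that leukocytes bind, had 1.79, 1.23 and 1.51 CPM in Dnmt3l males and 0.932, 2.48 and 3.08 CPM in Dnmt3l females, against 1.35, 1.18 and 1.03 CPM in control males and 0.765, 0.798 and 0.68 CPM in control females. Its groups overlapped more than those of any other of the 10 genes: 4 of 6 Dnmt3l libraries exceeded all controls, and Dnmt3l male 2 did not even though it is not the library that stands apart. The log2 change was 0.94 ± 0.28.

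Cldn5, the main claudin of the blood-brain barrier, had 22.2, 26.1 and 28.6 CPM in Dnmt3l males and 16.1, 25.5 and 26.2 CPM in Dnmt3l females, against 9.94, 11.6 and 10.5 CPM in control males and 14.1, 10.6 and 11.9 CPM in control females. Genotypes did not overlap, and the log2 change was 1.07 ± 0.13. Slc2a1, the GLUT1 transporter that carries glucose across the barrier and is also found on astrocytes, had 263, 295 and 282 CPM in Dnmt3l males and 85, 197 and 172 CPM in Dnmt3l females, against 113, 121 and 118 CPM in control males and 86.5, 100 and 90 CPM in control females. Dnmt3l female 1 had the lowest level of all 12 libraries, and each of the other 5 Dnmt3l libraries exceeded every control. The log2 change was 0.99 ± 0.15.

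**Figure D1:**
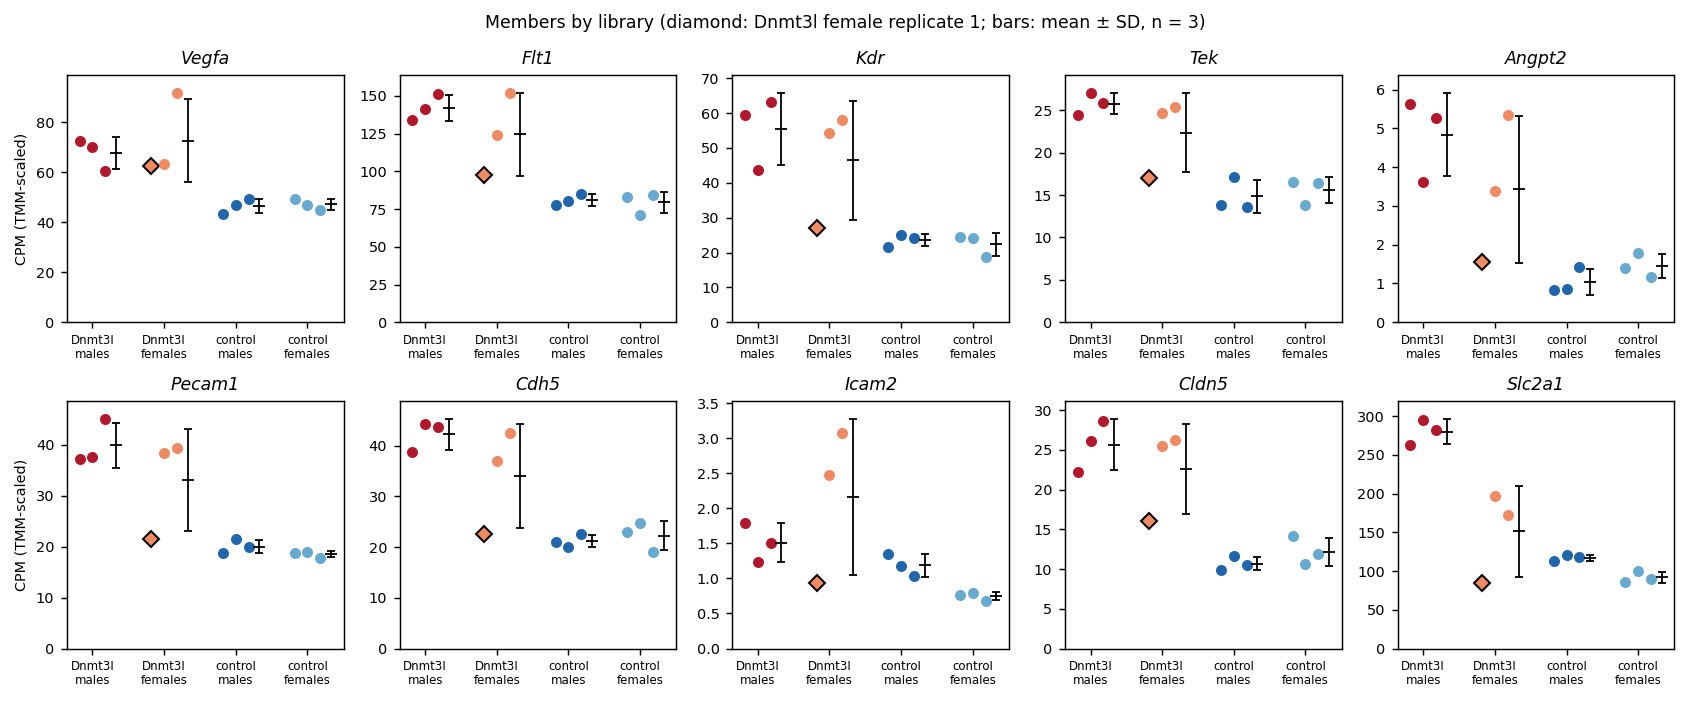
CPM of the 10 genes in each of the 12 libraries (y axes, linear and starting at 0), by genotype and sex, with mean ± SD of 3 libraries beside the points and a diamond for Dnmt3l female 1. In 5 panels (Vegfa, Flt1, Kdr, Pecam1 and Cldn5) all Dnmt3l points are above all control points, and in 9 panels the diamond is the lowest Dnmt3l point.

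All 10 genes were called higher in Dnmt3l at an edgeR adjusted p below 0.05, as were 25.2% of all tested genes, while 26.4% were called lower. The 10 were selected on this contrast, so nothing is read from that count. Their log2 changes ran from 0.58 to 1.73 with a median of 0.93, beside a median of 0.016 over all tested genes. In Vegfa, Flt1, Kdr, Pecam1 and Cldn5 (5 of 10) every Dnmt3l library was above every control, as was the case for 5.47% of tested genes, and this count too comes from the contrast that selected them. Relative to the mean of the 6 controls, Dnmt3l female 1 was at 0.812 (Slc2a1), 0.964 (Icam2), 1.04 (Cdh5), 1.12 (Pecam1 and Tek), 1.17 (Kdr), 1.21 (Flt1), 1.25 (Angpt2), 1.34 (Vegfa) and 1.41 (Cldn5). The mean of the other 5 Dnmt3l libraries was at 1.53 (Vegfa) to 3.76 (Angpt2) on the same ratio. Without Dnmt3l female 1 only Icam2 still overlapped between genotypes, and the log2 changes ran from 0.61 (Vegfa) to 1.89 (Angpt2). The share of all tested genes that do not overlap without that library was not counted. This separation also comes from the contrast that selected the 10 genes, so nothing is read from it.

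**Figure D2:**
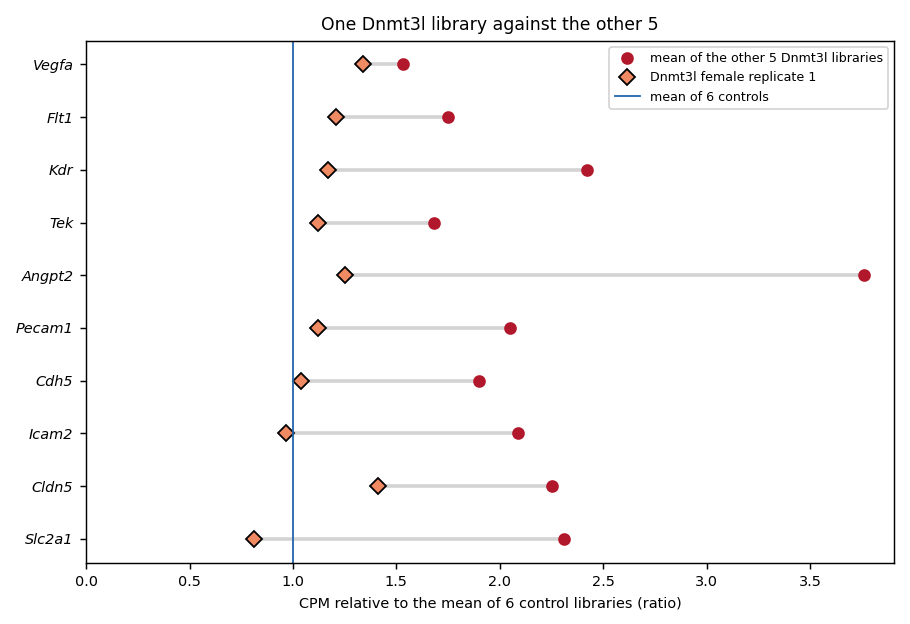
CPM relative to the mean of 6 control libraries (x axis, a ratio; the vertical line marks 1), for the mean of the other 5 Dnmt3l libraries (circles) and for Dnmt3l female 1 (diamonds). The gap between the symbols is widest for Angpt2, 3.76 against 1.25, and narrowest for Vegfa, 1.53 against 1.34.

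The difference between the male and the female genotype effect does not use the average that selected the genes and was tested for each. In males the log2 change, Dnmt3l minus control, was 2.22 ± 0.4 for Angpt2, 1.26 ± 0.22 for Slc2a1, 1.26 ± 0.18 for Cldn5 and 0.35 ± 0.39 for Icam2. In females it was 1.24 ± 0.39 for Angpt2, 0.71 ± 0.21 for Slc2a1, 0.89 ± 0.18 for Cldn5 and 1.52 ± 0.4 for Icam2. The male minus female difference was thus 0.97 ± 0.56 for Angpt2 (edgeR adjusted p = 0.69), 0.55 ± 0.3 for Slc2a1 (adjusted p = 0.684), 0.37 ± 0.25 for Cldn5 (adjusted p = 0.711) and -1.18 ± 0.55 for Icam2 (adjusted p = 0.679). The difference for the other 6 genes ran from -0.08 ± 0.19 (Vegfa) to 0.38 ± 0.26 (Cdh5). None of the 10 passed (0 of 10), with 0 at an unadjusted p below 0.05, and 0% of the 15786 genes passed in edgeR, where 1120 had an unadjusted p below 0.05. DESeq2 called 5 genes and none of the 10. Without Dnmt3l female 1, edgeR called 26 genes, again none of the 10, and the differences became 0.24 for Slc2a1, 0.61 for Angpt2 and -1.55 for Icam2. A p that misses the threshold does not show that the effects of the sexes were alike.

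**Figure D3:**
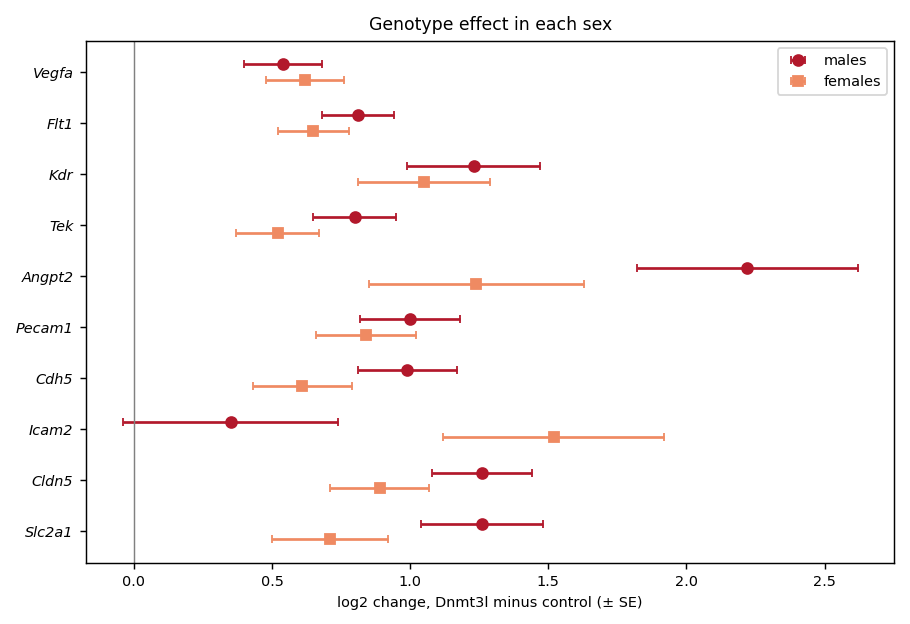
Log2 change, Dnmt3l minus control, of the 10 genes in males (circles) and females (squares), ± SE from the edgeR fit. The bars of males and females lie close in Vegfa (0.54 and 0.62) and are farthest apart in Icam2 (0.35 and 1.52) and Angpt2 (2.22 and 1.24).

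Between control females and control males none of the 10 genes passed (0 of 10; edgeR adjusted p = 1 for each, 0 at an unadjusted p below 0.05), and 0.0253% of all tested genes did, which is 4 genes against 245 at an unadjusted p below 0.05. Slc2a1 was at 86.5, 100 and 90 CPM in control females, against 113, 121 and 118 CPM in control males, a log2 difference of -0.34 ± 0.21. Icam2 was at 0.765, 0.798 and 0.68 CPM in control females, against 1.35, 1.18 and 1.03 CPM in control males, a log2 difference of -0.66 ± 0.4. In these 2 of the 10 genes all control females were below all control males, beside 9.66% of tested genes whose control females lay all above or all below the control males.

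Levels of the 10 genes ran in parallel over the libraries. Over all 12, Pearson's r of log2(CPM + 0.5) for the 36 pairs among the 9 genes other than Vegfa ran from 0.629 to 0.981 with a median of 0.917, and the 9 pairs with Vegfa from 0.641 to 0.887. These r include the genotype difference that selected the genes. After subtraction of the 4 group means the median was 0.793 among the 9 genes and 0.442 for pairs with Vegfa. Without Dnmt3l female 1 and after the same subtraction the medians were 0.128 and 0.113, so within groups the likeness rests on that library. All of these r share libraries and depth and are a description over 12 or 11 libraries.

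Outside the 10 genes, the levels most like the mean of the 9 genes (as z-scores) over 12 libraries were those of Notch1, the receptor of Notch signalling (r = 0.994), Gpr37l1, an astrocyte receptor (0.992), P2ry13, a purinergic receptor of microglia (0.991), Slc27a1, a fatty acid transporter (0.989), Ltbp4, a TGF-beta binding protein (0.989), and Cpe, carboxypeptidase E (0.989). After the group means were subtracted they included Fstl1 (0.992), Myorg (0.991), Itgb1 (0.987), Ednrb (0.985) and L1cam (0.983), and these values too hold the low library among their 12 points.

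Several of the 10 genes have more than 1 transcript. Transcript shares were tested with limma as the log2 ratio of a transcript's FPKM to that of the gene's other transcripts, each plus 0.1. Where a transcript or the rest of its gene is near 0, the added 0.1 makes this ratio move with the level of the gene, so there the test is not independent of the level that selected the genes. Of 50493 transcripts tested, 1.75% passed, and of 28 transcripts of 7 of the 10 genes 0 did, with 3 at an unadjusted p below 0.05 (10929 of all transcripts). The 883 calls over all transcripts became 8 without control female 3 and 4016 without Dnmt3l female 1, and none of the 28 was called in any fit that left out a library. Flt1 has a full-length transcript for the membrane receptor, ENSMUST00000031653, which held 67.6 ± 4.15% of Flt1 FPKM in Dnmt3l and 69.4 ± 2.59% in controls (SD, n = 6 each; limma log2 ratio -0.11 ± 0.16, adjusted p = 0.741). Its second transcript, ENSMUST00000110529, held 22.2 ± 2.54% in Dnmt3l and 25.6 ± 1.67% in controls (limma adjusted p = 0.28). The main Kdr transcript held 92.1 ± 3.91% in Dnmt3l and 93 ± 2.87% in controls, and the main Slc2a1 transcript 98.2 ± 0.706% in Dnmt3l and 98.2 ± 1.15% in controls. Cdh5 had nearly all its FPKM in 1 transcript, 98.3 ± 2.82% in Dnmt3l and 97.6 ± 3.87% in controls, and Cldn5 has 1 transcript in the table.

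4 Vegfa transcripts shared most of the gene's FPKM: ENSMUST00000071648 held 26 ± 4.28% in Dnmt3l and 29.9 ± 3.1% in controls, and ENSMUST00000150327 held 26 ± 3.17% in Dnmt3l and 29.4 ± 2.23% in controls. ENSMUST00000113519 held 21.2 ± 8.16% in Dnmt3l and 17.1 ± 4.58% in controls, and ENSMUST00000133605 held 17.3 ± 4.93% in Dnmt3l and 13.6 ± 2.02% in controls. Their limma adjusted p-values were 0.283, 0.354, 0.555 and 0.396. A minor Vegfa transcript, ENSMUST00000142321, had the lowest p of the 28, with 0.155 ± 0.287% in Dnmt3l and 1.21 ± 1.18% in controls (limma log2 ratio -1.88 ± 0.63, adjusted p = 0.126), and it passed with a pseudocount of 0.5 (adjusted p = 0.0469); the ratio of a transcript this low moves with the level of the gene. For Pecam1, transcript ENSMUST00000103069 held 35.2 ± 7.25% in Dnmt3l and 25.4 ± 7.98% in controls (limma log2 ratio 0.67 ± 0.28, adjusted p = 0.191). The other main Pecam1 transcripts had lower mean shares in Dnmt3l, and none passed. ENSMUST00000080853 held 19.9 ± 7.69% in Dnmt3l and 25.2 ± 7.67% in controls (limma log2 ratio -0.47 ± 0.38, adjusted p = 0.516). ENSMUST00000135481 held 19.7 ± 14% in Dnmt3l and 24.2 ± 9.41% in controls (limma log2 ratio -0.99 ± 1.02, adjusted p = 0.624), and ENSMUST00000106796 held 9.65 ± 10.1% in Dnmt3l and 14.8 ± 6.73% in controls (limma log2 ratio -1.39 ± 0.93, adjusted p = 0.427). In Tek the 2 main transcripts held 54 ± 10.5% and 42.7 ± 13.7% in Dnmt3l and 54.5 ± 13.6% and 35.1 ± 14.9% in controls. The main Angpt2 transcript held 81.9 ± 20.8% in Dnmt3l and 81.9 ± 28.1% in controls, on few counts, with a log2 ratio of 0.58 ± 0.68 although the mean shares were equal, and the second Angpt2 transcript held the remaining 18.1 ± 20.8% in Dnmt3l and 18.1 ± 28.1% in controls. The main Icam2 transcript held 91.5 ± 9.67% in Dnmt3l and 75.6 ± 25.3% in controls and did not reach the level for testing.

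Of the remaining 7 VEGF genes tested, 3 were called higher and 0 lower in edgeR, and their median log2 change was 0.24, beside 0.016 for all genes, 25.2% of which were called higher. The count was 4 without Dnmt3l female 1 and 1 without the 3 controls with liver transcripts. Over all genes these fits called 4744 and 1920 higher, against 3976 with all 12 libraries. Flt4, the VEGFR3 receptor gene of lymphatic and sprouting endothelium, was at 12.4, 11.1 and 11.5 CPM in Dnmt3l males and 4.27, 8.13 and 8.47 CPM in Dnmt3l females, against 5.88, 4.55 and 4.11 CPM in control males and 4.42, 4.93 and 4.49 CPM in control females. It rose, with a log2 change of 0.93 ± 0.16 (edgeR adjusted p = 0.000656), with Dnmt3l female 1 below 5 of the 6 controls. Nrp2, a semaphorin and VEGF co-receptor gene, was called at 0.42 ± 0.16 (edgeR adjusted p = 0.0404) and Vegfb, a ligand of VEGFR1, at 0.24 ± 0.1 (edgeR adjusted p = 0.0455). Leaving out a single library ended the Nrp2 call for 9 of 12 libraries and the Vegfb call for 8 of 12, for example without Dnmt3l male 3 (edgeR adjusted p = 0.101 for Nrp2 and 0.108 for Vegfb). The co-receptor gene Nrp1 (0.27 ± 0.14, edgeR adjusted p = 0.122) and the ligand genes Pgf (-0.03 ± 0.26), Vegfd (-0.22 ± 0.18) and Vegfc (-0.33 ± 0.15, edgeR adjusted p = 0.0877) did not pass. Without Dnmt3l female 1 Nrp1 was called, at 0.38 (edgeR adjusted p = 8.05e-05). Its levels in males were alike, at 47.1, 44.5 and 42 CPM in Dnmt3l and 45, 46.3 and 46.4 CPM in controls. Dnmt3l females 2 and 3 were at 88.3 and 72.7 CPM, against 44.1, 43.5 and 47 CPM in control females.

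Among the angiopoietin and Tie genes, 2 of 5 tested were called higher and 0 lower, with a median log2 change of 0.46. Over all tested genes 25.2% were called higher and 26.4% lower. Tie1, an orphan receptor that forms complexes with TIE2, had 17.9, 19.8 and 21.5 CPM in Dnmt3l males and 10.3, 16.7 and 20 CPM in Dnmt3l females, against 10.3, 10.8 and 10.1 CPM in control males and 9.25, 9.43 and 7.2 CPM in control females. It rose by 0.89 ± 0.14 (edgeR adjusted p = 0.000436), and Dnmt3l female 1 lay among the control males. Ptprb, the endothelial phosphatase VE-PTP that dephosphorylates TIE2, had 175, 199 and 220 CPM in Dnmt3l males and 89.2, 171 and 167 CPM in Dnmt3l females, against 85.3, 94.1 and 96.1 CPM in control males and 97, 83.7 and 81.9 CPM in control females. It rose by 0.91 ± 0.14 (edgeR adjusted p = 0.00038). Angpt1, which encodes the TIE2 agonist made by cells around vessels, showed a log2 change of 0.01 ± 0.16 (edgeR adjusted p = 0.966), with 5.24 to 8.81 CPM in Dnmt3l and 5.71 to 8.1 CPM in controls. Angptl2 (0.3 ± 0.22, edgeR adjusted p = 0.266) and Angptl4, an inhibitor of lipoprotein lipase (0.46 ± 0.22, edgeR adjusted p = 0.0938), did not pass. Both passed without Dnmt3l female 1 (edgeR adjusted p = 0.0189 and 0.0401). Angptl4 was at 6.22, 9.25 and 4.72 CPM in Dnmt3l males, against 4.19, 3.14 and 2.03 CPM in control males. Dnmt3l females 2 and 3, at 2.62 and 2.87 CPM, lay within control females (2.45 to 3.13 CPM). For Angptl2, Dnmt3l males (8.59, 6.05 and 9.12 CPM) overlapped control males (7.1, 6.12 and 8.07 CPM). Dnmt3l females 2 and 3 (6.68 and 10.9 CPM) lay above control females (4.49 to 5.81 CPM). Angpt4 did not reach the filter.

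Of 30 other endothelial identity genes, 28 were called higher and 0 lower, with a median log2 change of 0.81. Over all tested genes 25.2% were called higher and 26.4% lower. This list, like the others, was chosen with earlier results of these data known, so its count is a description. By mean FPKM over the 12 libraries, the most abundant of those called was Ly6c1 (100), a surface marker of endothelium and of some leukocytes. It was at 26.8 to 71.2 CPM in Dnmt3l and 23.1 to 27.7 CPM in controls (1.1 ± 0.14, edgeR adjusted p = 0.000264). S1pr1, a sphingosine 1-phosphate receptor gene of endothelium and astrocytes, was at 197 to 278 CPM in Dnmt3l and 163 to 196 CPM in controls (0.45 ± 0.08, edgeR adjusted p = 0.00058). Robo4, an endothelial guidance receptor gene, was at 6.52 to 22.2 CPM in Dnmt3l and 6.76 to 8.61 CPM in controls (1.05 ± 0.16, edgeR adjusted p = 0.000413). The 2 genes that did not pass were Plvap, which encodes the diaphragm protein of fenestrated endothelium and is low in barrier vessels (-0.41 ± 0.2, edgeR adjusted p = 0.109), and Tal1, a haematopoietic and early endothelial transcription factor gene (-0.04 ± 0.25, edgeR adjusted p = 0.899). Plvap was called lower without Dnmt3l female 1 (-0.53, edgeR adjusted p = 0.0353).

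Blood-brain barrier genes other than Cldn5 and Slc2a1 gave 22 called higher and 0 lower of 24, with a median log2 change of 0.62. Over all tested genes 25.2% were called higher and 26.4% lower. The count called higher was 15 without the 3 controls with liver transcripts, where 1920 of all genes were called higher, against 3976 in the main fit. With limma on log2(FPKM + 0.1) and on log2(FPKM + 1) it was 16, beside 2329 and 2345 of all genes. Mfsd2a, the barrier's lysolipid transporter gene, had the largest change of those called and was at 41, 36.5 and 37 CPM in Dnmt3l males and 11.1, 34.5 and 27.6 CPM in Dnmt3l females, against 13.6, 15.5 and 14.1 CPM in control males and 12.2, 12.7 and 10.7 CPM in control females. The log2 change was 1.22 ± 0.2 (edgeR adjusted p = 0.000512), with Dnmt3l female 1 within the controls. Lsr, the angulin of tricellular junctions, was called at 0.96 ± 0.13 (edgeR adjusted p = 0.000273) and Bsg, the basigin subunit of lactate transporters, at 0.53 ± 0.1 (edgeR adjusted p = 0.00129). Tjp1, which encodes the junction scaffold ZO-1 and is expressed by many cell types, was called at 0.17 ± 0.06 (edgeR adjusted p = 0.0267), a call lost in 11 of 19 alternatives. It was lost with limma on FPKM (log2 change 0), with no filter (edgeR adjusted p = 0.0797), without the 3 controls with liver transcripts (0.13, edgeR adjusted p = 0.298) and without any one of 7 libraries (Dnmt3l male 2, Dnmt3l female 3, control males 2 and 3 and control females 1, 2 and 3), the highest of these edgeR adjusted p-values being 0.0971 without control male 2. The tricellulin gene Marveld2 (-0.05 ± 0.24, edgeR adjusted p = 0.885) was among those that did not pass.

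Vegfa, Slc2a1 and Angpt2 are known to be raised by hypoxia-inducible factors, and 26 other genes of that response were therefore counted. Of the 25 tested, 6 were called higher and 11 lower, with a median log2 change of -0.27, while 25.2% of all genes were called higher and 26.4% lower. Without the 3 controls with liver transcripts 3 were called higher and 9 lower. That fit called 1920 of all genes higher and 2439 lower, against 3976 and 4160 with all 12 libraries. The glycolytic enzyme genes Aldoa and Eno1 were called lower, Aldoa at 341 to 718 CPM in Dnmt3l and 753 to 846 CPM in controls (-0.94 ± 0.14, edgeR adjusted p = 0.000391) and Eno1 at 346 to 520 CPM in Dnmt3l and 581 to 630 CPM in controls (-0.58 ± 0.08, edgeR adjusted p = 0.000341). Bnip3, a mitophagy receptor gene, was called lower at -1.08 ± 0.18 (edgeR adjusted p = 0.000536). Adm, which encodes the vasodilator peptide adrenomedullin, was called higher at 1.04 ± 0.25 (edgeR adjusted p = 0.00447). Chosen after their values were seen, the hypoxia factor genes themselves did not move alike. Epas1, whose protein HIF-2 alpha is abundant in endothelium, rose by 0.77 ± 0.12 (edgeR adjusted p = 0.000393). It was at 219 CPM in Dnmt3l female 1, 349 to 489 CPM in the other Dnmt3l libraries and 221 to 245 CPM in controls. Arnt rose by 0.28 ± 0.07 (edgeR adjusted p = 0.00603). Hif1a fell, with a log2 change of -0.44 ± 0.06 (edgeR adjusted p = 0.000311).

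**Figure D4:**
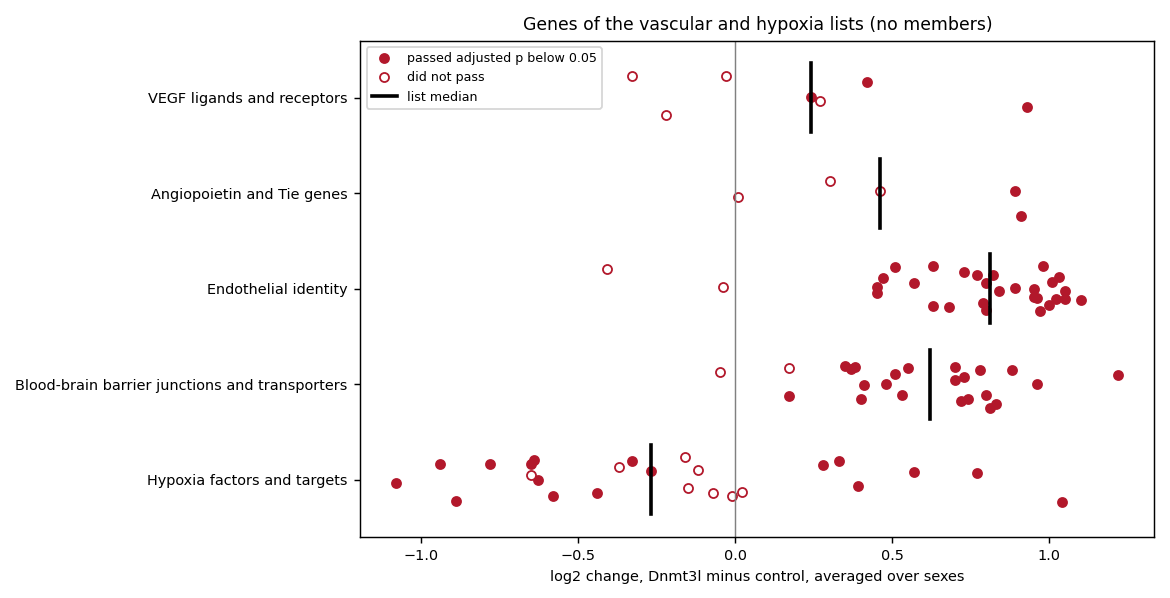
Log2 change, Dnmt3l minus control averaged over sexes (x axis), of the genes tested in the 5 lists, none of them among the 10 genes; filled points passed an edgeR adjusted p below 0.05, open points did not, and black bars are list medians. The endothelial identity and blood-brain barrier medians are 0.81 and 0.62 and the hypoxia median is -0.27.

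Markers of other cell types moved in the same libraries, and their part in the values of the 10 genes was not tested. The counts below from all 12 libraries stand beside 25.2% of all tested genes called higher and 26.4% called lower (3976 and 4160 genes). Those without the 3 controls with liver transcripts stand beside 1920 genes called higher and 2439 lower. Those without Dnmt3l female 1 stand beside 4744 higher and 5183 lower. Pericyte and smooth muscle markers were called higher in 11 of 16 (0 lower; 7 higher without the 3 controls with liver transcripts), with a summed level of 308 to 706 CPM in Dnmt3l and 301 to 356 CPM in controls. Microglial markers were called higher in 11 of 12 (0 lower), with 332 to 664 CPM in Dnmt3l and 304 to 347 CPM in controls. Astrocyte markers were called higher in 10 of 11 and lower in 1 (0 lower without those 3 controls), with 7200 to 13600 CPM in Dnmt3l and 6570 to 7080 CPM in controls. In these 3 lists the lowest Dnmt3l sum was that of Dnmt3l female 1. Cortical neuron markers were called higher in 2 of 8 and lower in 6, with a median log2 change of -0.67. Their sums, 6690 to 7750 CPM in Dnmt3l and 6110 to 7100 CPM in controls, are mostly those of Camk2a, 1 of the 2 called higher. Meningeal fibroblast markers gave 3 higher and 1 lower of 10, with 173 to 347 CPM in Dnmt3l and 203 to 270 CPM in controls (6 higher without Dnmt3l female 1, 1 higher without the 3 controls with liver transcripts). Choroid plexus markers gave 0 higher and 1 lower of 7, with 63.8 to 610 CPM in Dnmt3l and 90.1 to 346 CPM in controls (0 lower without those 3 controls). Red blood cell markers gave 0 higher and 4 lower of 5, with 72.2 to 218 CPM in Dnmt3l and 106 to 513 CPM in controls, and liver markers 0 higher and 8 lower of 8 tested. Without the 3 controls with liver transcripts 0 red blood cell markers and 0 liver markers were called lower. No marker of these lists was at 0 in all libraries. Without the 3 controls with liver transcripts the log2 changes of the 10 genes ran from 0.57 (Tek) to 2.02 (Angpt2).

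MicroRNAs of vessels were read from the separate small RNA libraries, which the rule that chose the 10 genes did not use. Their columns could be assigned to a group but not to a sample, and they are written with a letter. Total counts were 11397289 to 12378452 in Dnmt3l and 17784876 to 19608955 in controls. Of 12 listed microRNAs 5 were in the table and 4 were tested. The sequences shown are the endothelial miR-126a-3p, which lies within an intron of the endothelial gene Egfl7, and the hypoxia-induced miR-210-3p, with the seed (bases 2 to 8) in capitals. Their seeds differ.
miR-126a-3p (chr2:26591402-26591423, plus strand): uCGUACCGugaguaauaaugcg
miR-210-3p (chr7:141221407-141221428, minus strand): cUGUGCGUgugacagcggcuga
Among 434 microRNAs tested in edgeR, 1.38% were called higher and 1.61% lower, and of the 4 listed 0 were called (2 at an unadjusted p below 0.05, 112 of the 434). The 13 calls over all microRNAs became 132 without Dnmt3l female library a. MiR-126a-3p had 4560, 5530 and 5180 CPM in Dnmt3l males and 7630, 6120 and 5770 CPM in Dnmt3l females, against 5610, 6470 and 6040 CPM in control males and 6300, 5830 and 6920 CPM in control females. The groups overlapped and the log2 change was -0.11 ± 0.09 (edgeR adjusted p = 0.449), with a range over alternatives of -0.14 to 0. MiR-210-3p had 38.3, 40.8 and 31.9 CPM in Dnmt3l males and 39.3, 38.4 and 39.3 CPM in Dnmt3l females, against 43.5, 48 and 52.3 CPM in control males and 45.6, 39.1 and 50.7 CPM in control females. Its log2 change was -0.29 ± 0.09 (edgeR adjusted p = 0.0911), and DESeq2 called it lower (adjusted p = 0.0262), with adjusted p-values of 0.0262 to 0.954 over the alternatives. MiR-143-3p and miR-145a-5p, microRNAs of vascular smooth muscle, did not pass, at -0.5 ± 0.2 (edgeR adjusted p = 0.175) and -0.22 ± 0.12 (edgeR adjusted p = 0.291) on the log2 scale. Both were called lower without Dnmt3l female library a, which had their highest Dnmt3l levels (-0.67, adjusted p = 0.0139, and -0.3, adjusted p = 0.0315), and miR-143-3p also with no filter on low counts (adjusted p = 7.84e-06). MiR-126b-3p was listed with 0 to 3 counts and was not tested.

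**Figure D5:**
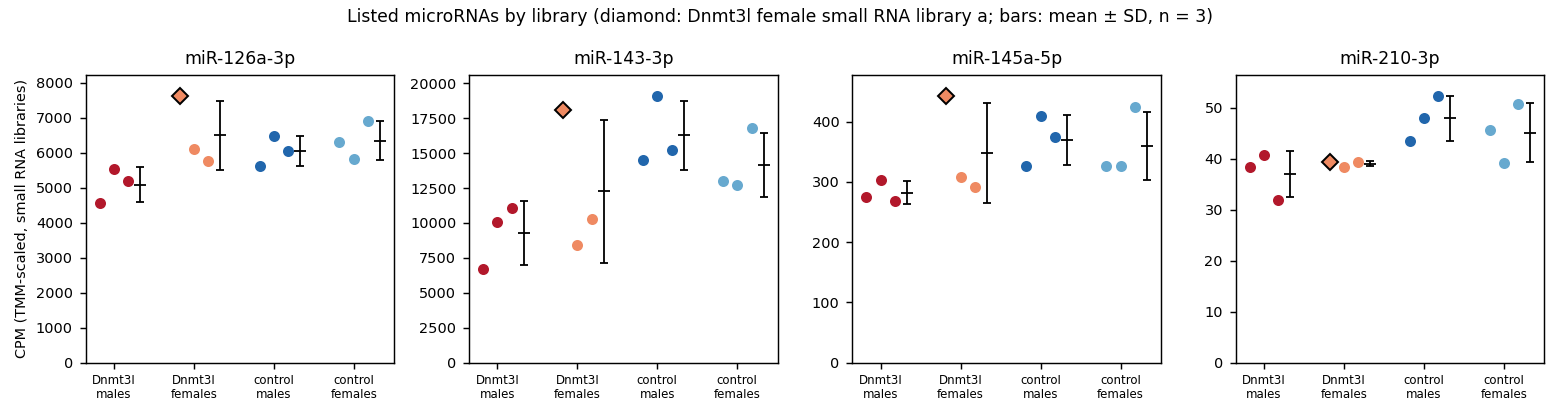
CPM of 4 microRNAs in the 12 small RNA libraries (y axes, linear and starting at 0), by genotype and sex, with mean ± SD of 3 libraries and a diamond for Dnmt3l female library a. In miR-126a-3p the groups overlap, and the diamond is the highest point of the Dnmt3l females in each panel except miR-210-3p.

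Long non-coding transcripts assigned to the 10 genes were few. Their FPKM are scaled to the long non-coding counts alone and cannot be set beside the mRNA FPKM above. Those counts totalled 1585456 to 1836838 per library in Dnmt3l and 1467252 to 1839502 in controls. TCONS_00515744, assigned to Angpt2, was at 57.39, 53.13 and 61.48 FPKM in Dnmt3l males and 52.04, 49.07 and 56.0 FPKM in Dnmt3l females, against 41.52, 56.59 and 38.11 FPKM in control males and 58.68, 50.43 and 43.74 FPKM in control females. The groups overlapped, and Dnmt3l female 1 did not stand apart in it as it did for Angpt2 mRNA. TCONS_00515742, also assigned to Angpt2, held 24 to 45 counts per library in Dnmt3l and 26 to 55 in controls. TCONS_00236832, assigned to Vegfa, held 10 to 14 counts in Dnmt3l and 4 to 25 in controls, and a transcript assigned to Pecam1 had counts in 1 control library alone.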

How the data were processed

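Per the file headers, the authors deposited expected counts and FPKM per Ensembl transcript for 119414 transcripts, the same pair for 23698 long non-coding transcripts, and whole-number microRNA counts for 1821 microRNAs. The build was GRCm38 and the tools HISAT2 2.0.1, HTSeq 0.6.1, bedtools 2.17.0, DESeq2, cutadapt 1.9.1 and bcl2fastq 2.17.1.14, per the submitters' processing notes, with no roles. The program that counted, and its use of strand, are not given in the sources used here. Expected counts were summed per gene and rounded. The 1774 transcripts without a gene ID, 0.533% to 0.601% of counts, were left out, and so were circular RNAs. Genes at 0.5 FPKM or more in at least 3 of 12 libraries, and microRNAs with 1 count in at least 3 libraries and a mean of at least 10, were tested with edgeR 4.0.16 (TMM, quasi-likelihood, 4 group means, 8 residual degrees of freedom, two-sided, Benjamini-Hochberg over all features) in R 4.3.3; transcript shares with limma 3.58.1 (trend, pseudocount 0.1). Alternatives were DESeq2 1.42.0, upper-quartile scaling, limma on log2(FPKM + 0.1) and log2(FPKM + 1), no filter, a replicate block and each library left out. For genes a further alternative left out together the 3 controls with liver transcripts, which were picked by their levels of those transcripts. Steps were tested on simulated data.

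The 10 genes and all lists were chosen with earlier results of these data known. Genes named from a list are all tested ones where the list has at most 7 genes, and otherwise the 2 called genes with the highest mean FPKM and the 2 with the largest change; genes that did not pass and the hypoxia factor genes were added after their values were seen. Transcripts named hold at least 10% of their gene or stand out by p. Some genes that belong beside those named are not reported here.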

Additional observations from a re-analysis of the deposited data

How the results depend on the processing

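All 10 genes kept a positive log2 change under each of the 19 alternatives. These reuse the libraries whose genotype difference selected the genes, so nothing is read from the kept sign. The range over the alternatives was 0.48 to 0.63 for Vegfa and 0.71 to 2.02 for Angpt2, where 0.71 came from limma on log2(FPKM + 1). Counts over all genes moved more. With limma on log2(FPKM + 0.1), 2329 genes were called higher and 4282 lower, and with log2(FPKM + 1) 2345 and 4269, against 3976 and 4160 in edgeR. Without the 3 controls with liver transcripts 4359 genes were called (1920 higher, 2439 lower), the sex difference had 1 call, control sex 0, VEGF genes 1 higher and hypoxia genes 3 higher. VEGF genes also had 1 called higher with both limma settings and with the replicate block, and 1 to 4 with a library left out (4 without Dnmt3l female 1). With a library left out, angiopoietin genes had 2 to 4 called higher and endothelial identity genes 0 to 1 lower, the highest value in each without Dnmt3l female 1. The sex difference had 5 calls in DESeq2 and 0 to 26 with a library left out (26 without Dnmt3l female 1). Transcript shares gave 2368 calls with a pseudocount of 0.5 (1 of them a transcript of the 10 genes), 9 with the replicate block and 8 to 4016 with a library left out (8 without control female 3, 4016 without Dnmt3l female 1). MicroRNA calls were 69 in DESeq2, 29 with upper-quartile factors, 82 with no filter and 6 to 132 with a library left out (6 without Dnmt3l male b, 132 without Dnmt3l female a). The cause of these moves was not tested. Deviations of same-numbered libraries correlated at -0.282 to 0.115, and 4 of 12 libraries correlated best with their own number, so the numbers were not taken to pair samples. Among the named genes followed over the alternatives, the block changed no call other than those of Nrp2 and Vegfb, which it lost. Arnt was not followed over them. Icam2 and Angpt2 had the lowest counts of the 10 genes.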
